A study of Xenopus laevis with 4 samples.

Results

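The ubiquitin-proteasome genes of early gastrula Xenopus laevis embryos were compared between control embryos and embryos with a knockdown targeting all 3 TBP family members. Members were chosen by symbol: proteasome subunits and their activators and chaperones (psma to psmg), SUMO genes, E1 activating enzymes (uba), E2 conjugating enzymes (ube2), deubiquitinases of the USP and UCH families (usp, uchl) and ZFAND zinc finger genes. This gave 195 entries with 115 distinct symbols, of 45098 entries in the table. Most genes of this allotetraploid frog exist as an L and an S copy (homeologs), which are separate entries. In the triple knockdown (TKD), embryos were injected at the 1-cell stage with a mixture of antisense DNA oligonucleotides against the mRNAs of TBP, TBP2 and TLF, for which the labels give 0.8 ng and the study's methods a separate dose per oligonucleotide. Control embryos were injected with water, so that no control carries an unrelated oligonucleotide. All embryos were kept at 18 °C and collected at stage 10.5, with 10 embryos pooled per sample and 2 samples per group. According to the study TKD embryos stop developing at the onset of gastrulation, so that the treatment and the progress of development cannot be told apart.

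TBP is the TATA-binding protein that starts assembly of the RNA polymerase II machinery at promoters, and TBP2 and TLF are its vertebrate-specific and metazoan relatives. The 3 oligonucleotides are shown because they are the whole of the treatment. The capitals mark the central stretch joined by unmodified linkages, where RNase H can cut the paired mRNA, and the lower-case ends carry linkages modified against degradation.
tbp: tgcatTTCGCGCTctaag
tbp2: tcatcGTATGGAgtcat
tlf: atatcCAGTGCCacatc
The oligonucleotides are 18, 17 and 17 bases long with 7, 6 and 6 unmodified linkages.

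Ubiquitin is activated by an E1 enzyme, passed to an E2 enzyme and attached to proteins with the help of E3 ligases. Proteins carrying ubiquitin chains are recognised and unfolded by the 19S regulatory particle of the proteasome and cut in the chamber of the 20S core, while deubiquitinases take the chains off again. An early frog embryo holds large stores of maternal mRNA and protein, and degradation of maternal proteins through this system is part of the passage from egg to embryo.

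The deposited values were group means of read counts scaled by size factors. The whole reads of each library were recovered from these means, and the libraries are called deeper and shallower here because the means do not say which replicate number each library has. The TKD libraries held 2523060 and 1414476 recovered reads and the control libraries 5222085 and 3436848. All values of single libraries below are recovered reads divided by the size factor (normalized counts), given as deeper and shallower library of a group, and they are not corrected for transcript length, so levels of different genes are not compared. The targeted tbp.S had 32.9 and 19.8 normalized counts in TKD and 57.8 and 87.7 in control embryos, a log2 fold change of −1.32 ± 0.47 (SE, adjusted p = 0.0943), whereas tbp.L (−0.51 ± 0.67, adjusted p = 0.638) did not pass the test and tbpl2.L, the gene of TBP2, was too low for it. No entry was matched for TLF. All 16 entries of early gastrula markers passed the filter on low reads, and none of 15 entries of markers of later tissues did. Of the gastrula marker entries 7 rose (43.8%) and 5 fell (31.2%), against 10.3% and 14.3% of all genes. Those that rose were both copies of gsc, an organizer gene (log2 fold change 3.20 for gsc.L), mix1 and eomes (1.07 and 1.30), and mixer.L. Those that fell were both copies of t, the mesodermal brachyury gene (−2.73 for t.L), and krt8, and szl.L. The T-box genes t and eomes, both expressed in the marginal zone according to the study, thus went opposite ways. The part of these marker changes in the values below was not tested. In these whole-embryo samples, fewer cells of a type and less RNA per cell cannot be told apart.

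Of the 195 entries, 175 were tested, 14 had reads but too few for the test and 6 had no read in any library. The threshold was an adjusted p of 0.1 in limma-voom, adjusted over all 17026 genes tested. In TKD embryos 17 entries rose (9.71%) and 26 fell (14.9%), while 132 did not pass the test. Of all genes tested, 10.3% rose and 14.3% fell, so that the share of ubiquitin-proteasome entries in either direction was near that of the background. The entries had a median log2 fold change of 0.18 (quartiles −0.39 and 0.53), and all genes one of 0.04 (−0.60 and 0.57). When the libraries were scaled by their totals, the median of all genes moved to 0.21, and 31 entries rose and 25 fell, against 16.2% and 11.6% of all genes. Of the calls among the entries 55.4% were then higher in place of 39.5%, and of the calls among all genes 58.1% in place of 41.8%. The 2 TKD libraries both lay above the 2 control libraries for 67 entries (38.3%, against 29.9% of all genes) and both below for 48 (27.4%, against 30.7%). Groups that do not overlap are common among all genes, and where stated below this only describes the values. Entries of the system thus changed in both directions, from −2.82 for psmd11.S to 2.63 for zfand2a.L. Nothing in the labels says that the samples came from separate clutches, so that p-values measure only the spread between these samples. They come from a fit without a replicate block. With such a block the number of calls depended on which libraries were paired, among the entries and among all genes. Leaving out each library in turn, 8 of the 17 entries that rose and 14 of the 26 that fell passed the test in all 4 fits.

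**Figure D1:**
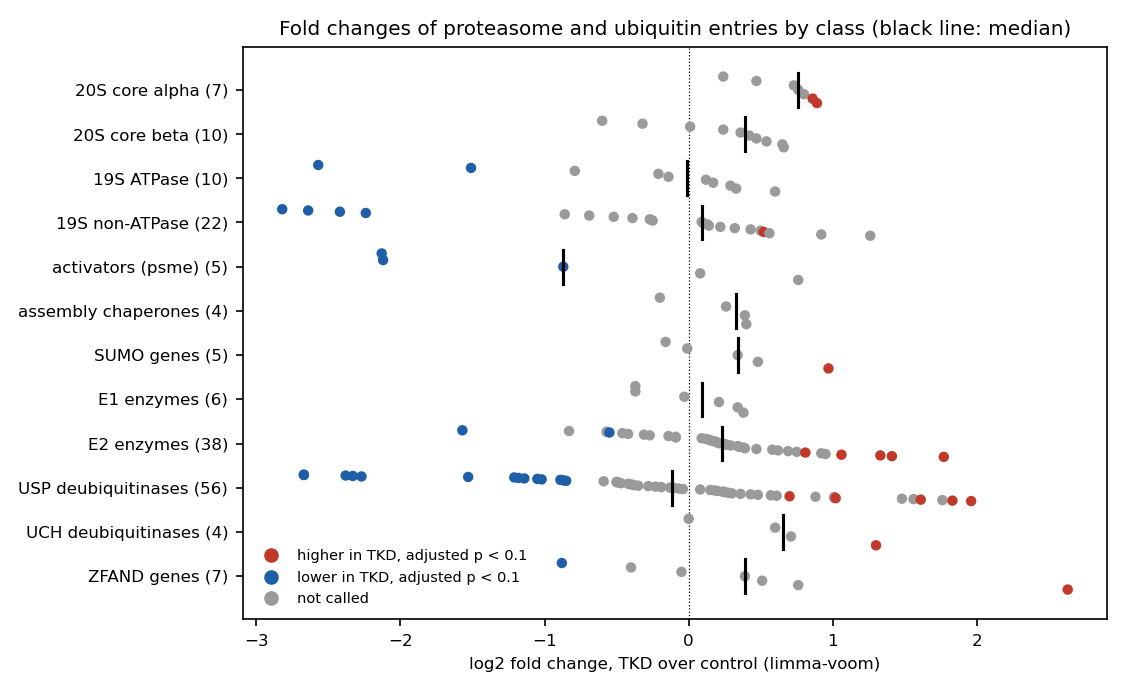
Log2 fold change of TKD over control embryos (x axis) for the tested entries of each class (y axis, number tested in parentheses), 1 point per entry, red where it rose and blue where it fell at an adjusted p under 0.1, with the class median as a black line. The 7 alpha entries tested, copies of psma2, psma3, psma4 and psma6 alone, all lie above 0. The USP deubiquitinases spread from −2.67 to 1.96 with 14 entries that fell and 6 that rose.

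The 20S core is a barrel of 4 stacked rings, with alpha subunits forming the outer gates and beta subunits the cutting chamber inside. Of 17 core entries tested, 2 rose (11.8%, near the 10.3% of all genes) and none fell, against 14.3% of all genes. At an unadjusted p under 0.05 in limma-voom there were 5 core entries, all of them higher. Of all 17026 genes tested, 2434 were higher and 2996 lower at that level. The median log2 fold change was 0.47, against 0.04 over all genes, and 11 of the 17 entries (64.7%, against 29.9% of all genes) had higher values in both TKD libraries than in either control library. All 7 alpha entries tested had fold changes above 0, from 0.24 for psma2.L to 0.89 for psma4.L, with psma2.S at 0.47 ± 0.23 (adjusted p = 0.204).

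The alpha subunit psma3.L had 170.2 and 155.4 normalized counts in TKD and 80.6 and 104.1 in control embryos. The groups did not overlap, and the log2 fold change was 0.86 ± 0.25 (adjusted p = 0.0576). Another alpha subunit, psma4.L, had 123.2 and 183.6 in TKD and 77.6 and 79.9 in control embryos, a log2 fold change of 0.89 ± 0.28 (adjusted p = 0.0697). Neither call was robust to the choice of libraries: psma3.L passed in 1 of 4 fits with a library left out (adjusted p = 0.26 without the deeper control library, 0.234 without the deeper and 0.12 without the shallower TKD library) and psma4.L in 2 of 4 (0.274 without the shallower TKD library, 0.132 without the deeper control library). Of their homeologs, psma3.S was too low for the test, and psma4.S had 113.8 and 86.0 against 64.4 and 54.8 and a log2 fold change of 0.76 ± 0.29 (adjusted p = 0.117).

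The 10 beta entries tested had fold changes from −0.60 for psmb1.S to 0.66 for psmb2.S, and none passed the limma-voom test. An unadjusted p under 0.05 was reached by 2 of them, both higher, as by 2434 of all 17026 genes that were higher. psmb5, the subunit with chymotrypsin-like activity and the main target of proteasome inhibitor drugs, had log2 fold changes of 0.24 (L, adjusted p = 0.58) and 0.54 (S, adjusted p = 0.19). psmb7, with trypsin-like activity, had 0.42 and 0.36 (adjusted p = 0.288 and 0.404). The subunits of the immune and thymic forms of the proteasome had few or no reads, with psmb11.L at 0 reads, psmb9.S at 4 reads in 1 TKD library alone and psmb8.L at 3.13 to 21.3 normalized counts over the 4 libraries.

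The 19S particle caps the core and consists of a ring of 6 ATPases (psmc), which unfold the substrate, and of non-ATPase subunits (psmd), which form its base and lid. Of 32 entries tested, 6 fell (18.8%, against 14.3% of all genes) and 1 rose (3.12%, against 10.3%), and the median log2 fold change was 0.09 (−0.05 to 0.08 with 1 library left out). The 6 entries that fell belonged to 4 symbols, psmd11, psmd1, psmc6 and psmd6, and lay at −1.51 to −2.82, whereas the other entries lay between −0.86 and 1.26. The value of −0.86 ± 1.29 was that of psmd9.L, with 35.7 and 0 normalized counts in TKD and 14.2 and 15.7 in control embryos. The authors' TKD mean of psmd9.L was 120.0% of their control mean.

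psmd11 encodes a lid subunit that clamps the lid to the ATPase ring and the core. psmd11.L had 40.4 and 31.4 normalized counts in TKD and 271.8 and 194.2 in control embryos, and the authors' TKD mean was 15.4% of their control mean. The log2 fold change was −2.64 ± 0.39 (adjusted p = 0.00633). For psmd11.S the values were 38.6 and 16.5 against 212.5 and 195.7, a log2 fold change of −2.82 ± 0.43 (adjusted p = 0.00703). Both homeologs fell by a similar amount, with a difference of 0.19 ± 0.50 between their log2 fold changes, and both passed the test whichever library was left out.

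psmd1 is the largest subunit of the base and a scaffold on which the ATPase ring and ubiquitin receptors sit. The entry psmd1.1, which its name assigns to neither subgenome, had 37.6 and 34.7 normalized counts in TKD and 229.2 and 167.5 in control embryos, a log2 fold change of −2.42 ± 0.37 (adjusted p = 0.00726). psmd1.S, with 115.7 and 180.2 against 255.1 and 194.2, had −0.69 ± 0.29 and did not pass the test (adjusted p = 0.142). Reads that match more than 1 copy could have been assigned to either, as for all homeologs here.

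psmc6 is 1 of the 6 ATPases. psmc6.S had 16.9 and 6.61 normalized counts in TKD and 82.7 and 65.8 in control embryos (log2 fold change −2.57 ± 0.61, adjusted p = 0.029), and psmc6.L had 27.3 and 14.9 against 65.4 and 61.9 (−1.51 ± 0.45, adjusted p = 0.0589). The groups did not overlap for either copy, but psmc6.L no longer passed without the shallower TKD library (adjusted p = 0.189). Among the other 8 ATPase entries, of psmc1, psmc2, psmc3 and psmc5, none passed the test, and their log2 fold changes ran from −0.79 for psmc2.L to 0.60 for psmc3.S, with psmc5.L at 0.17 ± 0.28. The fall in psmc6 was thus seen beside partner subunits of the same ring whose levels gave no call.

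psmd6, another lid subunit, differed between its copies. psmd6.S had 7.52 and 19.8 normalized counts in TKD and 67.4 and 39.1 in control embryos (log2 fold change −2.24 ± 0.68, adjusted p = 0.0621), a call that was lost without the deeper TKD library (−1.38, adjusted p = 0.249). psmd6.L had 255.8 and 231.5 against 169.4 and 178.5 (0.50 ± 0.21, adjusted p = 0.147), so that most reads of this subunit came from the copy without a call. The entry that rose, the lid subunit psmd8.L, had 442.9 and 476.2 against 313.4 and 324.1 (0.52 ± 0.19, adjusted p = 0.099) and passed in none of the 4 fits with a library left out (adjusted p = 0.19 to 0.318). Its homeolog psmd8.S gave 0.09 ± 0.25 (adjusted p = 0.826). psmd14, the deubiquitinase of the lid, had few reads, and its copies gave 0.32 ± 0.80 and 0.92 ± 0.47. psmd5, psmd9 and psmd10 are known to help assemble the base rather than to stay in the particle, and none of their 5 entries passed.

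**Figure D2:**
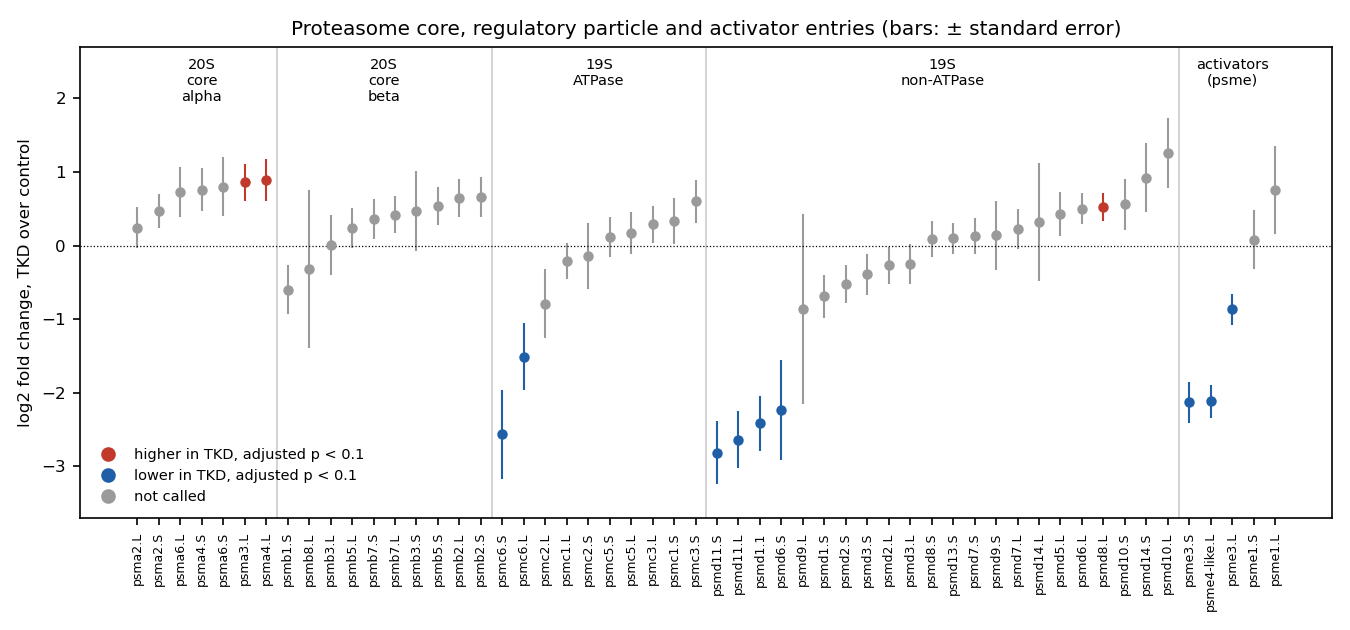
Log2 fold change of TKD over control embryos (y axis, bars show the standard error of limma-voom) for each tested entry of the proteasome core, regulatory particle and activators (x axis, ordered by value within each class). The entries of psmd11, psmd1.1, psmc6 and psmd6.S stand below −1.5, as do psme3.S and psme4-like.L, while the other entries of the regulatory particle lie between −0.86 and 1.26. The value of −0.86 ± 1.29 is that of psmd9.L, which had 0 reads in the shallower TKD library.

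Activators take the place of the 19S particle at the ends of the core. Of 5 entries tested 3 fell (60.0%, against 14.3% of all genes), and the median log2 fold change was −0.87, against 0.04 over all genes. The 3 entries that fell were both copies of psme3 and psme4-like.L. psme3 encodes the nuclear activator PA28 gamma, and psme4 the nuclear activator PA200, which is known for the degradation of acetylated histones in mammals.

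psme3.S had 183.4 and 129.0 normalized counts in TKD and 586.2 and 826.0 in control embryos (log2 fold change −2.13 ± 0.28, adjusted p = 0.00473). psme3.L had 507.8 and 434.9 against 780.4 and 963.0 (−0.87 ± 0.21, adjusted p = 0.0292). The S copy fell further than the L copy, and the difference between their log2 fold changes was 1.27 ± 0.27 (adjusted p = 0.0396). psme4-like.L had 135.4 and 152.1 against 610.5 and 634.2 (−2.12 ± 0.22, adjusted p = 0.00287), the authors' TKD mean being 23.1% of their control mean. psme1, a subunit of the cytoplasmic activator induced by interferon in mammals, had few reads, and its copies gave 0.08 ± 0.40 and 0.76 ± 0.60. The assembly chaperones psmg1 to psmg4 had 4 entries tested, with log2 fold changes from −0.20 to 0.40 (0.26 for psmg1.L and 0.40 for psmg2.L), and none of them passed or had an unadjusted p under 0.05.

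No entry carried the symbol of the polyubiquitin genes ubb and ubc or of uba1, the main ubiquitin E1, and these were not analysed here. The 6 E1 entries tested included uba2 (the catalytic subunit of the SUMO E1), uba3 (NEDD8) and uba6-like.L (ubiquitin), and none passed the limma-voom test or had an unadjusted p under 0.05. Their log2 fold changes lay between −0.37 for uba3.L and 0.38 for uba2.1. uba2.L had 397.7 and 463.0 normalized counts in TKD and 394.0 and 343.7 in control embryos (0.21 ± 0.20, adjusted p = 0.51). Among the SUMO entries, sumo2.L had 284.9 and 304.3 against 286.5 and 303.8, and it, sumo2.S (−0.16 ± 0.20, adjusted p = 0.615) and sumo3.1 (0.48 ± 0.26, adjusted p = 0.234) did not pass the test.

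Of 38 E2 entries tested, 5 rose (13.2%, near the 10.3% of all genes) and 2 fell (5.26%, against 14.3%), and the median log2 fold change was 0.23, against 0.04 over all genes. ube2j2, an E2 anchored in the membrane of the endoplasmic reticulum that serves the removal of misfolded proteins there, rose in both copies. ube2j2.S had 330.0 and 375.4 normalized counts in TKD and 123.2 and 142.5 in control embryos (1.41 ± 0.22, adjusted p = 0.00724), and ube2j2.L 318.8 and 436.6 against 217.5 and 200.4 (0.81 ± 0.23, adjusted p = 0.0493), the latter not passing without the shallower TKD library (adjusted p = 0.194). Its relative ube2j1 gave no call, with 0.19 and 0.58 for its copies.

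ube2n forms ubiquitin chains used for signalling rather than degradation, together with the inactive E2 variants ube2v1 or ube2v2. ube2n.L had 97.8 and 173.6 normalized counts in TKD and 29.9 and 47.8 in control embryos (1.77 ± 0.39, adjusted p = 0.0241), and ube2v1.S had 107.2 and 56.2 against 29.9 and 38.4 (1.33 ± 0.40, adjusted p = 0.0602). The groups did not overlap for either gene, but ube2v1.S passed neither without the deeper TKD library (0.77, adjusted p = 0.409) nor without the deeper control library (adjusted p = 0.126). The other copies, ube2n.S (0.95 ± 0.41) and ube2v1.L (0.26 ± 0.33), gave no call, and ube2v2 gave 0.21 and −0.09. ube2w.S, an E2 that attaches ubiquitin to the amino terminus of proteins, had 402.5 and 472.9 against 206.9 and 207.5 (1.06 ± 0.20, adjusted p = 0.014).

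The 2 E2 entries that fell were ube2h.S, the partner of the CTLH ligase in mammals, and ube2g1.S, which extends chains for cullin ligases. Their L copies gave no call (−0.09 for ube2h.L and −0.27 for ube2g1.L). ube2h.S had 29.1 and 59.5 normalized counts in TKD and 128.8 and 99.4 in control embryos (−1.57 ± 0.40, adjusted p = 0.0368), a call lost without the deeper TKD library (−0.93, adjusted p = 0.284). ube2g1.S had 317.8 and 339.0 against 478.7 and 483.1 (−0.55 ± 0.19, adjusted p = 0.0883) and passed in none of the 4 fits with a library left out (adjusted p = 0.186 to 0.309). Among the rest, ube2q2.L had 613.1 and 582.1 against 813.9 and 829.9 (−0.46 ± 0.18, adjusted p = 0.126) and ube2q2.S 521.9 and 477.9 against 594.8 and 651.4 (−0.31 ± 0.19, adjusted p = 0.293), and neither passed. The groups did not overlap for either copy, as for 30.7% of all genes in this direction. ube2c, the E2 of the anaphase-promoting complex, gave −0.42 and −0.57, and ube2d3, an E2 of many ligases, 0.20 and 0.12, all without a call.

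USP deubiquitinases remove ubiquitin from proteins and form the class with the most entries here. Of 56 tested, 14 fell (25.0%) and 6 rose (10.7%), against 14.3% and 10.3% of all genes, and the median log2 fold change was −0.11, or 0.06 when scaled by library totals. For 23 entries (41.1%, against 30.7% of all genes) neither TKD library reached the lower control library. For 16 (28.6%, near the 29.9% of all genes) both exceeded the higher one.

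The entries with the lowest adjusted p were among those that fell. usp4.L, a deubiquitinase that shuttles between nucleus and cytoplasm, had 174.9 and 165.4 normalized counts in TKD and 896.0 and 832.3 in control embryos (−2.33 ± 0.21, adjusted p = 0.00267). usp34.S, a very large enzyme that acts on axin in Wnt signalling, had 55.5 and 82.7 against 458.4 and 375.8 (−2.67 ± 0.30, adjusted p = 0.00341), and usp34.L 107.2 and 99.2 against 230.2 and 255.2 (−1.21 ± 0.24, adjusted p = 0.0166). The TKD values of these entries were far below the lowest control value, and all 3 passed the test whichever library was left out. The other copy of usp4, usp4.S, had 193.7 and 195.1 against 244.4 and 251.3 and gave no call (−0.35 ± 0.21, adjusted p = 0.291 in limma-voom).

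usp24, another very large enzyme of the family, fell in both copies. usp24.S had 58.3 and 87.6 normalized counts in TKD and 382.3 and 503.4 in control embryos (−2.67 ± 0.31, adjusted p = 0.00369), and usp24.L 72.4 and 79.4 against 330.1 and 404.8 (−2.27 ± 0.27, adjusted p = 0.00379). usp14 is the deubiquitinase that binds the 19S particle and trims chains from substrates there. usp14.L had 44.2 and 52.9 against 259.6 and 237.2 (−2.38 ± 0.30, adjusted p = 0.00408), while usp14.S had 342.3 and 403.5 against 321.0 and 288.1 (0.28 ± 0.20, adjusted p = 0.389). The L copy thus fell to 19.5% of the control mean while the S copy showed no call, and the S copy held most usp14 reads in TKD embryos. usp32.L, a membrane-bound enzyme, had 94.0 and 119.1 against 261.7 and 347.6 (−1.53 ± 0.28, adjusted p = 0.012). Its other copy, usp32.S, gave no call (0.24 ± 0.31, adjusted p = 0.629 in limma-voom).

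The other entries that fell were both copies of usp7, which stabilises p53 and its ligase, usp13.L, usp19.S, usp31.S, usp38.S and usp47.L, with log2 fold changes from −0.85 to −1.18 and adjusted p from 0.024 to 0.0411. Each of them failed in at least 1 fit with a library left out. Without the deeper TKD library usp19.S (adjusted p = 0.152), usp13.L (0.151), usp31.S (0.199), usp47.L (0.147) and usp7.L (0.1) did not pass, and without the shallower TKD library usp7.S (0.118), usp38.S (0.12), usp13.L (0.148), usp31.S (0.109) and usp7.L (0.125) did not. Without the deeper control library usp47.L (0.116) and usp7.L (0.152) did not pass either.

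Among the USP entries that rose, usp33, an enzyme of centrosomes and of receptor recycling, did so in both copies. usp33.S had 73.3 and 104.2 normalized counts in TKD and 22.3 and 20.4 in control embryos (1.96 ± 0.37, adjusted p = 0.0143), and usp33.L 101.6 and 94.3 against 33.0 and 31.3 (1.61 ± 0.31, adjusted p = 0.0143). usp46.L, which needs WD-repeat cofactors for activity, had 101.6 and 90.9 against 23.8 and 32.9 (1.83 ± 0.34, adjusted p = 0.0127). usp30.L, an enzyme of the mitochondrial outer membrane, had 99.7 and 114.1 against 51.2 and 53.2 (1.02 ± 0.28, adjusted p = 0.0459).

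usp28.L had 105.3 and 84.3 against 46.7 and 49.3 normalized counts (1.01 ± 0.29, adjusted p = 0.0542), and usp39.S, a family member that lacks deubiquitinase activity and works in the spliceosome, had 158.0 and 195.1 against 110.0 and 101.8 (0.70 ± 0.24, adjusted p = 0.0877). The groups did not overlap for either entry, and usp39.L, at 0.18 ± 0.19 (adjusted p = 0.559), gave no call. usp33 and usp46.L passed whichever library was left out. usp30.L passed only without the shallower control library (adjusted p = 0.0537), with an adjusted p of 0.127 and 0.158 when the deeper and the shallower TKD library were left out and of 0.126 when the deeper control library was. usp28.L failed without the deeper TKD library (0.294) and without the deeper control library (0.153), and usp39.S failed in all 4 fits (0.15 to 0.298).

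**Figure D3:**
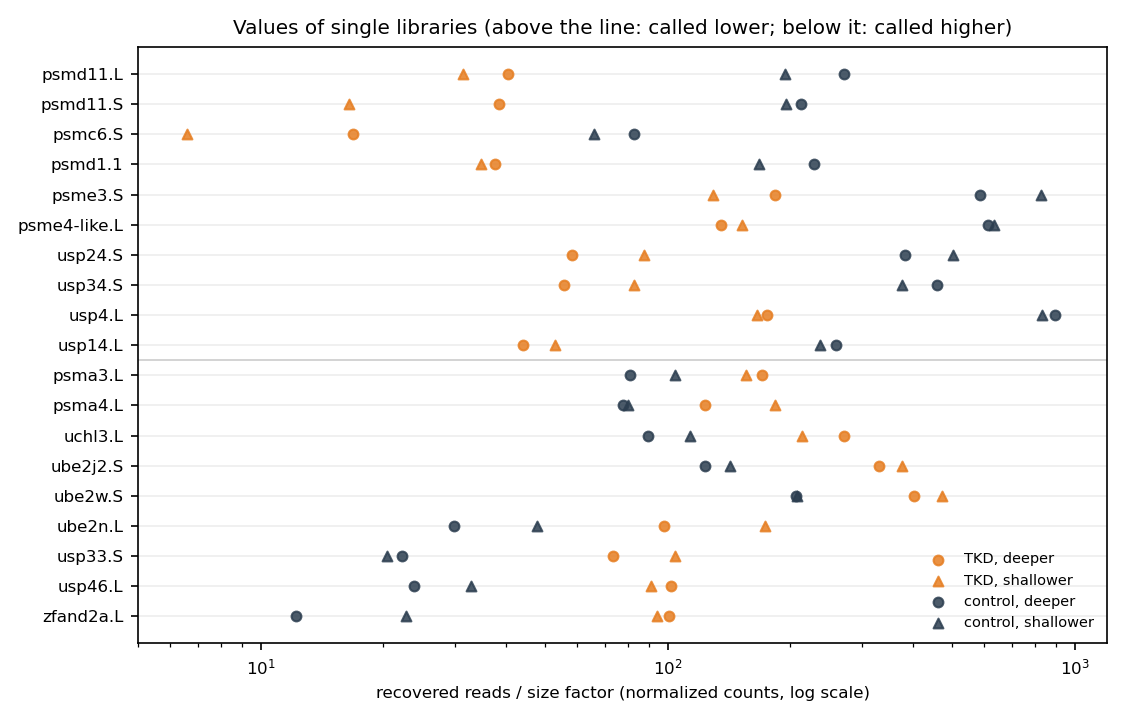
Normalized counts (x axis, log scale) in each of the 4 libraries, TKD in orange and control in dark blue, for 19 entries (y axis), 10 that fell above the grey line and 9 that rose below it. TKD and control libraries do not overlap in any of these entries, which were chosen for display among those that passed the test.

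The UCH family had 4 entries tested. uchl3.L, which processes precursors of ubiquitin and NEDD8, had 270.8 and 213.3 normalized counts in TKD and 89.2 and 113.5 in control embryos (1.30 ± 0.25, adjusted p = 0.0151), and uchl3.S had 71.5 and 76.1 against 38.5 and 54.8 (0.71 ± 0.33, adjusted p = 0.176). The call of uchl3.L held whichever library was left out. uchl5, the other deubiquitinase that binds the 19S particle, gave no call, and uchl5.L overlapped between the groups (138.2 and 99.2 against 96.9 and 159.7).

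ZFAND proteins carry AN1-type zinc fingers, and several bind the proteasome. zfand2a.L, an arsenite-inducible protein of the 19S particle in mammals, had the highest fold change of all 175 entries, with 100.6 and 94.3 normalized counts in TKD and 12.2 and 22.7 in control embryos (2.63 ± 0.41, adjusted p = 0.0075), and passed whichever library was left out. zfand3.S had 85.6 and 92.6 against 169.9 and 156.6 (−0.88 ± 0.25, adjusted p = 0.0525), and failed without the deeper TKD library (0.256), the shallower TKD library (0.14) and the deeper control library (0.142). zfand5, a proteasome activator in mammals, and zfand6 gave no call, with log2 fold changes from −0.05 to 0.76 (0.51 for zfand5.L and 0.76 for zfand6.S). psmc3ip.1, which matched the symbol rule but encodes a meiotic recombination cofactor and not a proteasome protein, gave 1.46 ± 0.70 (adjusted p = 0.196).

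Homeologs allow each gene to be read from a pair of entries, although their reads may be shared where the sequences are identical. In 69 pairs with both copies tested, 56 had fold changes of the same sign (81.2%, against 69.4% of 3669 pairs over all genes). Both copies fell for psmc6, psmd11, psme3, usp24, usp34 and usp7, and both rose for ube2j2 and usp33. In 19 pairs 1 copy passed the test, in 42 neither did, and no pair was called in opposite directions. These counts of calls were not made over all 3669 pairs, so they are not read as a trait of the pathway.

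A copy past the threshold beside one that is not does not show that they differ, so the difference between the copies was tested in limma over all 3669 pairs. It passed in 7 of the 69 pairs (10.1%), against a background of 6.92%. In usp4 (L minus S −1.99 ± 0.28, adjusted p = 0.0223), usp14 (−2.64 ± 0.32, adjusted p = 0.0223), usp32 (−1.75 ± 0.32, adjusted p = 0.0267) and usp47 (−0.99 ± 0.29, adjusted p = 0.0987) the L copy was lower relative to its control. In psme3, psmd6 (2.73 ± 0.65, adjusted p = 0.0598) and usp34 (1.46 ± 0.37, adjusted p = 0.0674) it was the S copy. No pair passed in limma without the deeper or without the shallower TKD library, where 9 and 11 pairs had an unadjusted p under 0.05.

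**Figure D4:**
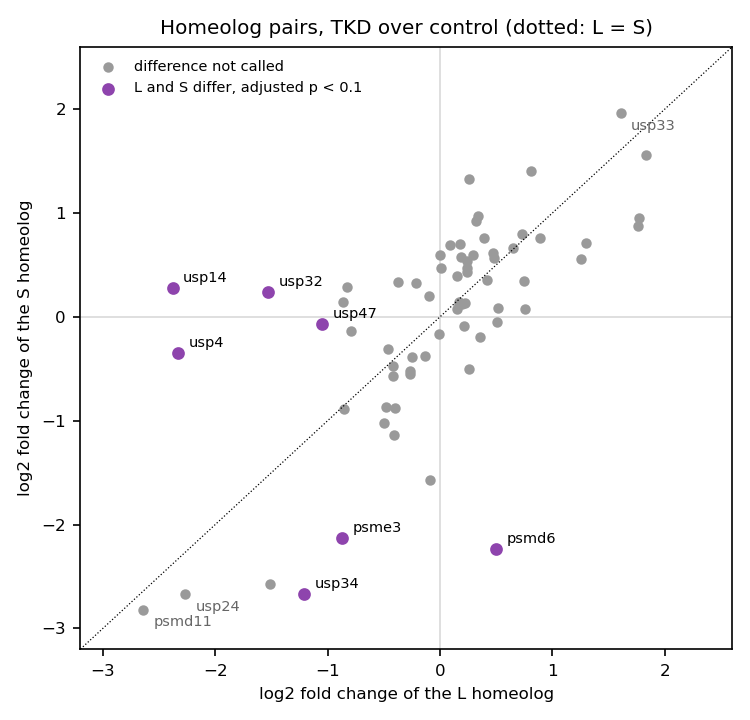
Log2 fold change of TKD over control embryos for the L homeolog (x axis) and the S homeolog (y axis) of 69 genes, 1 point per pair, with the 7 pairs whose copies differed at an adjusted p under 0.1 in purple and the dotted line marking equal values. Of the 69 pairs, 56 have the same sign in both copies, while usp14, usp4 and usp32 lie to its left and psmd6 below it.

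Genes that work beside these entries but lie outside the symbol rule were read from lists. Fits with a library left out are not reported here for the genes of these lists, so how far their calls hold is not known. Of 36 listed symbols of proteasome cofactors and ubiquitin shuttles 21 were matched, with 40 entries, of which 38 were tested. Of these 38 entries, 6 rose (15.8%, against 10.3% of all genes) and 3 fell (7.89%, against 14.3%). Both copies of pomp, the chaperone that matures the core, rose (0.72 and 0.84, adjusted p = 0.0999 and 0.0701 in limma-voom). So did both copies of ufd1l, a cofactor of the p97 segregase (0.99 and 1.08), and shfm1.L, the smallest lid subunit (0.91 ± 0.23, adjusted p = 0.0356). The last that rose, nfe2l2.S, a transcription factor of the oxidative stress response, had few reads (32.9 and 16.5 against 4.1 and 4.7). Only the TKD libraries brought it to the 10 reads in 2 libraries that the test required. Its call is therefore not independent of that filter. The other copy of shfm1, shfm1.S, gave no call (0.10 ± 0.47, adjusted p = 0.906). Both copies of the shuttle ubqln4 fell (−1.57 and −2.36), as did rad23b.L (−0.71), while rad23b.S gave no call (−0.38 ± 0.25, adjusted p = 0.342).

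Of 24 entries of other ubiquitin-like systems 3 fell (12.5%, against 14.3% of all genes) and 1 rose (4.17%, against 10.3%). ufl1.L, the UFM1 ligase, had 20.7 and 18.2 normalized counts in TKD and 145.0 and 140.9 in control embryos (−2.82 ± 0.41, adjusted p = 0.00633). ranbp2, a SUMO ligase of the nuclear pore, fell in both copies (−2.59 and −1.81), and the SUMO ligase pias4.L rose (0.71). Of 41 entries of other deubiquitinases and SUMO proteases 6 rose (14.6%, against 10.3% of all genes) and 1 fell (2.44%, against 14.3%), among them senp8, the NEDD8 protease, in both copies (1.46 and 1.38) and otud7b.L, which fell (−1.79 ± 0.37, adjusted p = 0.0186).

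Of 24 listed symbols of proteotoxic stress genes 16 were matched, with 27 entries, of which 21 were tested. Of these 21 entries 8 fell (38.1%) and 3 rose (14.3%), against 14.3% and 10.3% of all genes. Both copies of hspa5 (−1.05 and −0.79), the chaperone BiP of the endoplasmic reticulum, of herpud1 (−1.51 and −1.84) and xbp1 (−1.07 and −2.62), of the unfolded protein response, and of the cytoplasmic chaperone hspa8 (−0.87 and −1.47) fell. chac1-like.L (2.34 ± 0.39, adjusted p = 0.0091), sesn2.S (0.95) and dnajb1.L (0.86) rose.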

How the data were processed

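Total RNA of 4 samples was depleted of ribosomal RNA and sequenced as 75 nt single-end reads. The authors mapped reads with STAR to assembly JGI 9.1, allowing 1 mismatch, and compared groups with DEseq. Their versions, and the program that counted reads, are not given in the sources used. The signal values deposited by the authors are read counts per gene model, scaled by size factors and averaged within each group of 2 libraries. The deposited table also holds the authors' fold changes, p-values and adjusted p-values, which were not used.

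Each mean combines whole numbers of 2 fixed increments, 1 per library, so whole reads were recovered from the deposited means as the only solution for 45094 (TKD) and 45088 (control) of 45098 genes. All entries described were among them. The solved genes held 93.14% of the signal in TKD and 89.23% in control embryos, and 4 and 10 genes with more than 1 solution were left out. The size factors were 1.0635 and 0.6047 for TKD and 1.972 and 1.2772 for control libraries.

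Genes reaching 10 reads in 2 or more libraries were tested with limma-voom (limma 3.58.1, R 4.3.3), two-sided, with Benjamini-Hochberg adjustment over 17026 genes and a false discovery rate of 10%, the rate of the study. No count model was used. The scripts were tested on simulated data. The reads recovered per library were 2523060 and 1414476 (TKD) and 5222085 and 3436848 (control). These depths limit the precision for entries with few reads. Members, classes and lists were chosen with earlier results of these data known. The text names the 12 called entries with the lowest adjusted p in each direction, the 2 entries of each class with the highest mean count, all called proteasome entries, and others after their values were seen. Some entries are counted but not reported here by name. The test of the difference between homeologs was added after the data were seen. Symbols were matched in lower case without the homeolog suffix. No reference genome of the build was used, so no promoter or transcript sequences are shown. Alternatives were 2 other scalings, 2 other filters, thinning, 2 other limma fits, a threshold of 0.05, summed homeologs, a replicate block in both pairings, pseudocounts of 0.1 and 10 and leaving out each library.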

Additional observations from a re-analysis of the deposited data

How the results depend on the processing

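All 43 calls kept their sign under each of the 13 alternative fits. The 17 entries that rose and 26 that fell became 31 and 25 when scaled by library totals, against 16.2% and 11.6% of all genes. The median of all genes moved from 0.04 to 0.21. Of the calls among the entries 55.4% rather than 39.5% were higher, and of the calls among all genes 58.1% rather than 41.8%. At a threshold of 0.05 there were 10 and 22, for which the share of all genes is not given here. Leaving out 1 library gave 10 to 18 that rose and 18 to 27 that fell. The labels number the replicates, but the deposited means do not carry the numbers, so both possible pairings were fitted. With a replicate block that paired the deeper libraries, 8 rose and 13 fell, against 468 and 1178 of all 17026 genes tested. With the crossed pairing 46 rose and 37 fell, against 3616 and 3767 of all genes, so that the calls moved with those of the background. The correlation over genes of the deeper minus shallower differences was −0.499, so that libraries of unlike depth deviated together, and which pairing holds was not tested. The 7 homeolog pairs that differed became 0 without a filter on low reads and with limma on a trend (9 at an unadjusted p under 0.05 in each), 2 and 15 with the replicate block, 4 at a threshold of 0.05, and 0 to 7 with 1 library left out. The cause was not tested.

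Median log2 fold changes moved with the scaling by library totals to 0.36 (all entries), 0.41 (E2), 0.06 (USP, which changed sign), 0.65 (core) and 0.27 (19S). Thinning all libraries to the shallowest gave 0.12 (all entries), −1.47 (activators), 0.15 (E2), −0.21 (USP) and 0.01 (19S). A mean of at least 20 reads gave −1.5 for activators and −0.24 for USP, no filter −0.08 for USP, and the replicate block −0.07 and −0.05 for USP. With 1 library left out, the ranges were 0.12 to 0.20 (all entries), −0.22 to −0.12 (USP), 0.49 to 0.64 (core) and −0.05 to 0.08 (19S). The log2 ratio of the authors' means over all entries was 0.17, and 0.11 with a pseudocount of 10.

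Of entries without a call, sumo2.S (0.02) and uchl5.L (0.18) changed sign with library totals and uchl5.L (0.00) with sample weights. With 1 library left out psma2.L ran from −0.11 to 0.49, psmd8.S from −0.19 to 0.35, psmg1.L from −0.08 to 0.47, psmc5.L from −0.08 to 0.49 and uchl5.L from −0.41 to 0.32. Fits without 1 library leave 1 sample in a group, which is assumed to vary like the others. Depth limited entries with few reads, of which 20 could not be tested.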
